A study of Mus musculus with 8 samples.

Results

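Nicotinic acetylcholine receptor subunit genes were examined in sorted nuclei of the adult mouse retina. The group holds 9 genes, chosen by symbol from the gene lists of the files: Chrna2, Chrna3, Chrna4, Chrna5, Chrna6, Chrna7, Chrnb2, Chrnb3 and Chrnb4. All 9 were found among the 33696 genes listed. Single-nucleus RNA sequencing (snRNA-seq) had been run on 4 libraries of Piezo2f/f control mice (replicates 1 to 4) and 4 libraries from cKO mice (Olig2-cre;Piezo2f/f, replicates 10 to 13), all at postnatal day 120. Both groups were female, on a C57BL/6J background, and carried floxed Piezo2 alleles. Olig2-cre, a knock-in at the Olig2 locus that leaves 1 working Olig2 allele, was carried by the cKO mice alone and drives Cre in cells with an Olig2 history, so that Piezo2 loss and the loss of an Olig2 allele cannot be told apart. Each library pooled 6 retinae, and nuclei had been sorted for NeuN and RBPMS to enrich retinal ganglion cells (RGCs), the output neurons of the retina.

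Nicotinic receptors are channels of 5 subunits that open when acetylcholine binds. Alpha subunits carry the main face of the binding site, beta subunits such as Chrnb2 and Chrnb4 complete it in mixed receptors, Chrna5 and Chrnb3 are accessory subunits, and Chrna7 can form receptors by itself. In the retina acetylcholine is released by starburst amacrine cells, and before eye opening it carries waves of activity between RGCs through receptors that hold the Chrnb2 subunit.

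Several of the genes lie in clusters. On GRCm39, Chrnb3 (chr8:27858739-27889758, plus strand) and Chrna6 (chr8:27893240-27903974, minus strand) point towards each other with 3481 bases between them. Chrna5 (chr9:54888164-54918184, plus strand), Chrna3 (chr9:54917395-54933941, minus strand) and Chrnb4 (chr9:54935438-54956076, minus strand) follow each other on chromosome 9, where the ends of Chrna5 and Chrna3 overlap by 790 bases on opposite strands and 1496 bases separate Chrnb4 from the start of Chrna3. The other 4 genes stand apart, Chrna7 at chr7:62731494-62862322, Chrna4 at chr2:180660173-180685339 and Chrnb2 at chr3:89653502-89671953, each on the minus strand, and Chrna2 at chr14:66372488-66390397 on the plus strand. Chrna2 overlaps Ptk2b, and Chrnb2 overlaps Adar, each on the opposite strand. Nuclear reads come from introns as well as exons, so each gene was counted over its whole span.

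Promoter sequences are shown for the chromosome 9 cluster, whose members had similar shares of their UMIs in 1 group of RGCs, and for Chrna4, whose pattern differed from that of Chrna3. They come from RefSeq on GRCm38.p6, in which 6 of the 9 genes were found. Chrna2, Chrna6 and Chrnb3 were not matched. Each run gives the 250 bases before the start, 5′ to 3′ along the gene, and capitals mark GGGCGG on either strand, the core of a GC box. The Chrna5 gene is listed with 2 starts.
Chrna3, chr9:55026563-55026812, minus strand: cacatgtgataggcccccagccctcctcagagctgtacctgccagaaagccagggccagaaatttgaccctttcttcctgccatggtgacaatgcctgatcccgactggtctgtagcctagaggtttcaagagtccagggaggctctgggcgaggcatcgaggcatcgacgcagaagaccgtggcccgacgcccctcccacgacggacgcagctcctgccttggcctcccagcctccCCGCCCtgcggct
Chrnb4, chr9:55048545-55048794, minus strand: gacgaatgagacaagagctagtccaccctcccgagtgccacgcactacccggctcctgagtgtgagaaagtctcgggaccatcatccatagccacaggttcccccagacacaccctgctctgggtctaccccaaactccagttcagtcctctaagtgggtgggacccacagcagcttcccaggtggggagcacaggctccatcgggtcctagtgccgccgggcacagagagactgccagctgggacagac
Chrna5, first start, chr9:54980630-54980879, plus strand: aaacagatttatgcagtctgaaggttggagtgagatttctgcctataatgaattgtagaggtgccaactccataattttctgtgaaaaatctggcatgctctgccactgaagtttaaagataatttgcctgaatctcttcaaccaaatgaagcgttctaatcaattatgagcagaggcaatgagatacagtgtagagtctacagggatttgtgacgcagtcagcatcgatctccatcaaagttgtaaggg
Chrna5, second start, chr9:54981238-54981487, plus strand: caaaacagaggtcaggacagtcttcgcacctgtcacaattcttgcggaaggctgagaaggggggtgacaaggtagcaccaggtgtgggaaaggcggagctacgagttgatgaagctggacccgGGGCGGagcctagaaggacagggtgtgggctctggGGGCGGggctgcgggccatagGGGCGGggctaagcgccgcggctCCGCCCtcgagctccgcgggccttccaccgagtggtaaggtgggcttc
Chrna4, chr2:181039178-181039427, minus strand: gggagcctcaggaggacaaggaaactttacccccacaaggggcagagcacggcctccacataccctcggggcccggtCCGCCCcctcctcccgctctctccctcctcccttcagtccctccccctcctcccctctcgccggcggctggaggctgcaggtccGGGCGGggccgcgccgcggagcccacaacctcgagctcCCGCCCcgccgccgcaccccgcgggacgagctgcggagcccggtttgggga
In windows of 300 bases that include 50 bases after the start, GGGCGG was found 3 times for Chrna4, once for Chrna3, not at all for Chrnb4 or the first start of Chrna5, and 4 times for the second start of Chrna5. Of all 32851 promoters of this length, 35.7% held it. The homeobox core TAATTA and the forkhead motif TGTTTAC were absent from the windows of all 6 genes, against 5.29% and 3.65% of all promoters, and AGGTGT, part of the T-box motif, was found in the second Chrna5 window alone, against 13.7% of all promoters. Base composition differed within the cluster, from 41.3% G and C at the first start of Chrna5 to 65% at the second, with 64.3% for Chrna3, 63% for Chrnb4 and 74.3% for Chrna4 against a median of 52.7% over all promoters.

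Levels are given as CPM, the unique molecular identifiers (UMIs, each 1 captured RNA molecule) of a gene per 1000000 UMIs of a group of barcodes in a library, and errors are SD over libraries. Libraries held 35697629 to 60088630 UMIs, and 2729 to 5902 barcodes per library, 39627 in all, had at least 1000. A barcode was put in a retinal class when at least 3 of the marker genes of that class had a UMI and led every other class by at least 2 genes. RGC-like barcodes were 18783 (47.4%; 9091 control and 9692 cKO), with a median of 7504 UMIs and of 6 of the 10 RGC markers, and 23.6% of them sat at the lead of 2. There were 4092 rod-like, 2289 Müller glia-like, 1336 bipolar-like, 900 amacrine-like, 729 cone-like and 717 horizontal-like barcodes, 18 starburst amacrine-like barcodes, too few to fit, and 10748 (27.1%) in no class. Of the amacrine-like barcodes 65.1% sat at the lead of 2, and the Müller glia-like barcodes held a median of 2 endothelial markers beside 7 of their own. Pairs of libraries shared 1 to 15 barcodes, at most 0.269% of the smaller library. Nothing in the labels tied a library to a date or batch.

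Chrnb3 and Chrna6, the convergent pair on chromosome 8, were the most abundant subunit genes of RGC-like barcodes, in CPM and per kilobase, and were higher there than in all 6 other classes tested. Chrnb3 stood at 251, 257, 237 and 220.3 CPM in control replicates 1 to 4 and at 223, 292, 273 and 225 CPM in cKO replicates 10 to 13. The 8 libraries together gave 247 ± 25.9 CPM (SD, n = 8), and control and cKO libraries overlapped. Chrna6, an alpha subunit that assembles with Chrnb2 and Chrnb3 in visual and dopamine pathways, stood at 103, 113, 103 and 103 CPM in control replicates and at 105, 149, 131 and 102 CPM in cKO replicates. Its mean was 114 ± 17.2 CPM, with cKO replicates 11 and 12 above the rest.

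Chrna7 reached 40.3 ± 2.13 CPM in RGC-like barcodes, Chrnb2 28.8 ± 5.08 CPM, Chrna3 11.5 ± 2.22 CPM and Chrna4 4.84 ± 1.30 CPM. Chrna7 had the smallest relative spread of the 6, with 37.1, 40.4, 38.1 and 42.1 CPM in control and 43.2, 42.2, 39.1 and 40.1 CPM in cKO libraries. Chrnb2, the main beta subunit of brain receptors, lay at 26.1, 27.2, 23.8 and 26.8 CPM in control and at 29.9, 40.3, 30.2 and 26.2 CPM in cKO libraries, where replicate 11 was the highest. The other 3 genes were close to the limit of detection in RGC-like barcodes, Chrnb4 at 0.292 ± 0.115 CPM (47 UMIs in all), Chrna5 at 0.258 ± 0.138 CPM (41 UMIs) and Chrna2 at 0.113 ± 0.0673 CPM (17 UMIs), and passed the filter on low counts in no comparison. Per kilobase of gene span the RGC-like level was 10.6 CPM for Chrna6, 7.97 for Chrnb3, 1.56 for Chrnb2, 0.694 for Chrna3, 0.308 for Chrna7 and 0.192 for Chrna4. Chrna6 and Chrnb3 thus led on this scale too, whereas Chrna7, a gene of 130.829 kb, fell behind Chrnb2 and Chrna3. Per kilobase of exon it stood at 3.95 CPM, above Chrnb2 (3.41 CPM) and Chrna3 (2.14 CPM), so its place in the order depends on the length used.

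**Figure D1:**
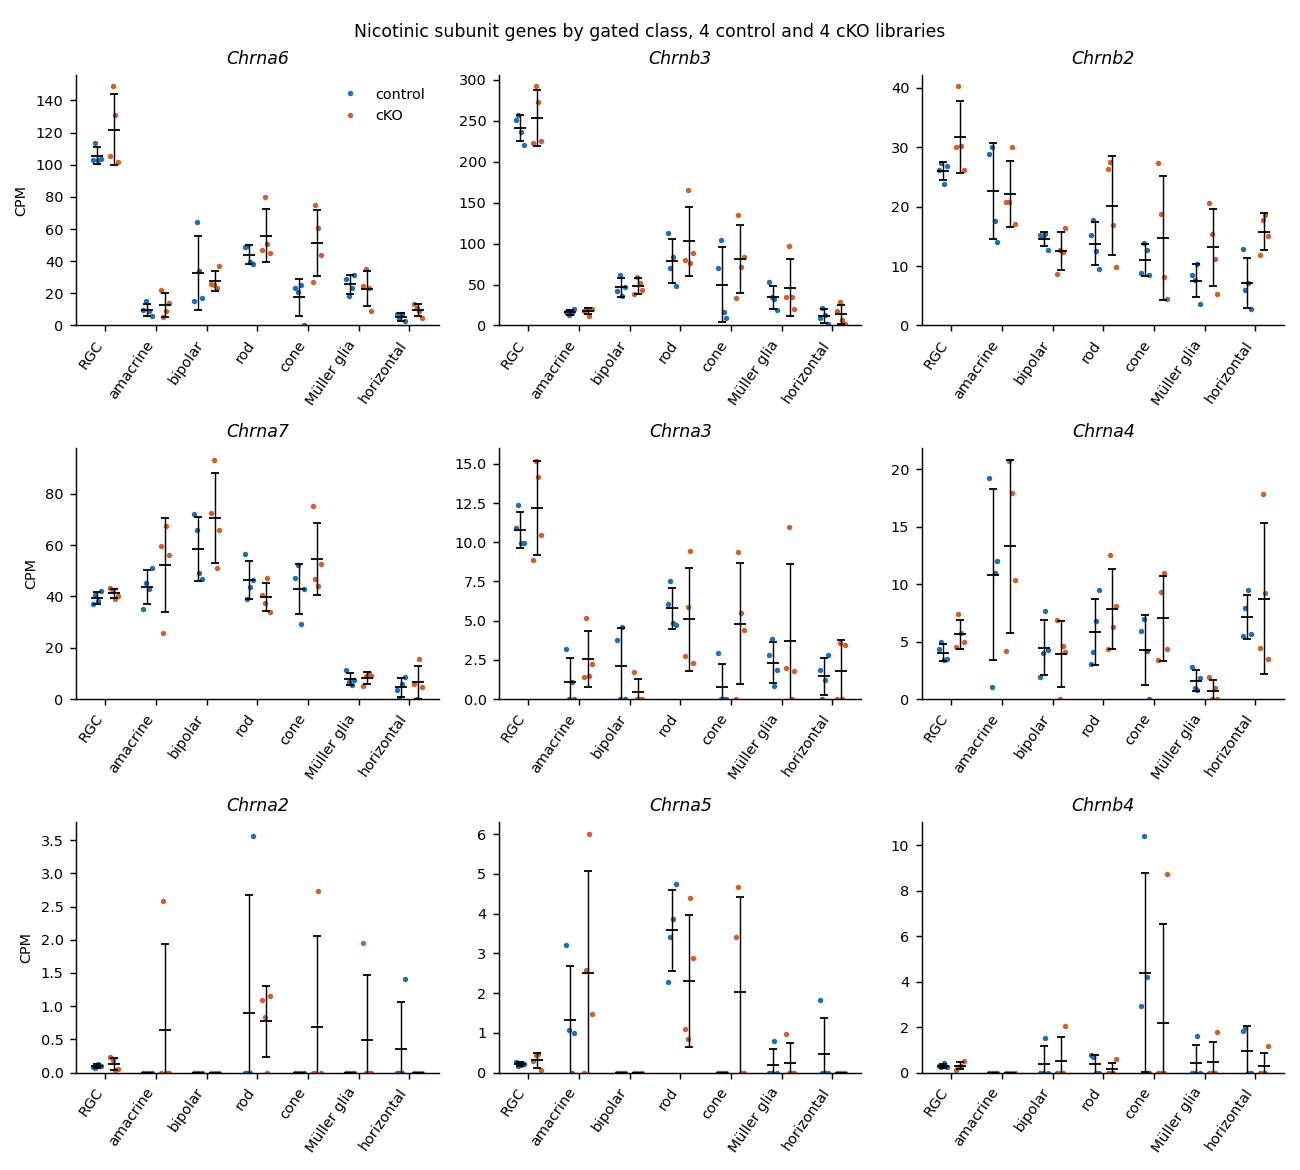
CPM (y axis, linear, a separate scale for each panel) of the 9 subunit genes in 7 gated classes (x axis). Points are libraries, blue for control and orange for cKO, and black marks are the mean ± SD of a group. Chrnb3 and Chrna6 are highest in RGC-like barcodes in all 8 libraries, Chrna7 is highest on average in bipolar-like barcodes, and Chrna4 in amacrine-like barcodes.

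The comparison of RGC-like barcodes with each other class was fitted with edgeR over 11964 genes with the library as a block. The threshold for a call was a Benjamini-Hochberg adjusted p below 0.05 together with a log2 difference beyond 0.5 in either direction, and 4 members were tested (Chrna6, Chrna7, Chrnb2 and Chrnb3). Many genes differ between retinal classes, and the members' counts stand beside that background. Against amacrine-like barcodes 2 of the 4 were called, both higher in RGC-like barcodes, where 25.4% of all genes were called. The counts were 4 against bipolar-like (background 47.2%), 3 against rod-like (45.0%), 3 against cone-like (49.9%), 4 against Müller glia-like (50.8%) and 4 against horizontal-like barcodes (40.5%). All of these calls but that of Chrna7 against bipolar-like barcodes were higher in RGC-like barcodes. The median log2 difference of the 4 members was 1.89 against amacrine-like, 1.24 against rod-like and 3.24 against horizontal-like barcodes, beside medians over all genes of 0.02, 0.07 and 0.04.

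Chrnb3 was 14.7-fold higher in RGC-like than in amacrine-like barcodes (log2 difference 3.88 ± 0.182 SE, adjusted p = 1.82e-26), where it lay at 17 ± 3.44 CPM. The fold was 19.3 against horizontal-like barcodes (12.5 ± 9.62 CPM), 6.79 against Müller glia-like (40.5 ± 25.1 CPM), 5.37 against bipolar-like (47.3 ± 9.70 CPM), 4.51 against cone-like (65.5 ± 43.7 CPM) and 3.37 against rod-like barcodes (90.8 ± 35.0 CPM). RGC-like libraries did not overlap with those of any other class. Chrna6 also stood apart from every other class in all libraries, with 11.2 ± 5.59 CPM in amacrine-like barcodes (9.90-fold, log2 difference 3.31 ± 0.182 SE, adjusted p = 2.64e-23), 7.39 ± 3.57 CPM in horizontal-like (13.8-fold) and 49.8 ± 13.1 CPM in rod-like barcodes (2.75-fold). For both genes rod-like barcodes came next after RGC-like ones, above cone-like barcodes in 7 of 8 libraries (two-sided exact paired permutation p = 0.0469 for Chrnb3 and 0.0391 for Chrna6). Here and below, neighbouring classes were set by the order of their means in the same data, and their p-values are not adjusted. By the same exact permutation test, cone-like and bipolar-like barcodes did not differ beyond their spread for either gene (p = 0.195 and 0.742), nor did bipolar-like and Müller glia-like (p = 0.406 and 0.469) or amacrine-like and horizontal-like barcodes (p = 0.273 and 0.125). Müller glia-like barcodes were above amacrine-like ones (exact p = 0.0313 for each gene), in 6 of 8 libraries for Chrnb3 and 7 of 8 for Chrna6. The Müller glia-like barcodes were shallower, with a median of 2533 against 6212.5 UMIs. The part of RNA from outside nuclei in this order was not tested. Some folds moved by over 1.5 times in the alternatives, all of them still called. On the log2 scale the difference from horizontal-like barcodes ran from 3.11 to 5.26 for Chrna6 and from 3.52 to 4.89 for Chrnb3, and that of Chrnb3 from 2.40 to 3.56 against Müller glia-like and from 1.90 to 2.92 against cone-like barcodes.

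Rbpms, the RGC marker of the sort and 1 of the 10 markers of the RGC-like gate, stood at 1176 CPM in RGC-like barcodes, at 315 CPM in rod-like, 217 CPM in cone-like and 169 CPM in Müller glia-like barcodes, and at 25.6, 26.9 and 11.1 CPM in bipolar-like, horizontal-like and amacrine-like barcodes. The gate limits Rbpms in the other classes, which had to lead the RGC markers by at least 2 genes, whereas Chrnb3 and Chrna6 were not gate genes. The order of Rbpms is thus not a free measure of RNA from RGCs. Its order and that of Chrnb3 and Chrna6 agreed only in part. Rod-like and cone-like barcodes followed RGC-like ones for all 3 genes, but bipolar-like barcodes, with Rbpms close to that of horizontal-like ones, had higher Chrnb3 and Chrna6 (30.3 against 7.39 CPM), and Müller glia-like barcodes had more Rbpms than bipolar-like ones without a higher mean of either subunit gene. Rod-like and bipolar-like barcodes were also shallower than horizontal-like ones, with medians of 1483.5, 2993 and 6013 UMIs. With Rbpms limited by the gate, these orders are a description and do not show where the RNA came from. The part of RNA from RGCs in the Chrnb3 and Chrna6 levels of rod-like, cone-like, bipolar-like and Müller glia-like barcodes was not tested.

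RNA outside nuclei was measured in 556304 near-empty droplets with 100 to under 500 UMIs each. Chrnb3 stood at 280 ± 29.6 CPM in this RNA and Chrna6 at 268 ± 22.7 CPM, whereas in RGC-like barcodes they stood at 247 and 114 CPM, so that the CPM of Chrna6 relative to that of Chrnb3 differed between the compartments. Of the 9 genes, 8 were higher in near-empty droplets than in RGC-like barcodes, among them Chrnb2 (65.6 ± 6.17 CPM), Chrna3 (25.1 ± 3.92 CPM) and Chrna4 (20.5 ± 2.31 CPM). Chrna7 was the exception, with 7.76 ± 2.51 CPM in near-empty droplets against 40.3 CPM in RGC-like barcodes. Were each barcode to hold as much free RNA as a near-empty droplet of its library, 900.4 of the 39803 Chrnb3 UMIs of RGC-like barcodes and 855 of the 18308 Chrna6 UMIs would come from it. The same estimate gave 33.8 of the 52 Chrnb3 UMIs and 32.3 of the 33 Chrna6 UMIs of horizontal-like barcodes, and 40.6 of the 74 Chrna6 UMIs of amacrine-like barcodes. On this estimate Chrna6 in horizontal-like barcodes was at the level of free RNA. The estimate is not given here for rod-like, cone-like, bipolar-like and Müller glia-like barcodes, where the part of free RNA was not tested.

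**Figure D2:**
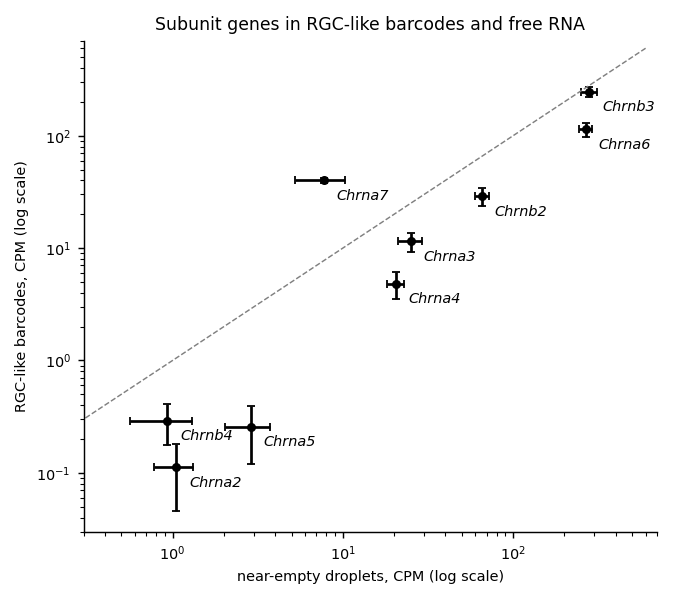
Mean CPM of the 9 subunit genes in near-empty droplets (x axis, log scale) and in RGC-like barcodes (y axis, log scale), with bars of 1 SD over 8 libraries; the dashed line marks equal levels. Chrna7 alone lies above the line.

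Chrna7, the subunit of receptors with 1 kind of subunit, had another distribution. It was highest in bipolar-like barcodes, with 72.0, 65.9, 49.3 and 46.7 CPM in control and 72.6, 93.1, 50.9 and 65.9 CPM in cKO libraries (64.5 ± 15.5 CPM, n = 8). Every bipolar-like value was above every RGC-like value, and the log2 difference of RGC-like against bipolar-like barcodes was -0.59 ± 0.122 SE (adjusted p = 3.38e-05). This call was lost when the lead between classes was raised to 3 genes (-0.42) and when no filter on low counts was used (-0.42). Below bipolar-like barcodes came cone-like (48.7 ± 12.9 CPM), amacrine-like (47.9 ± 13.5 CPM), rod-like (43.0 ± 6.94 CPM) and RGC-like barcodes, and no neighbours among these 4 differed beyond their spread (exact paired permutation p = 0.898, 0.414 and 0.430). Bipolar-like was above cone-like in 7 of 8 libraries (exact p = 0.0156). Müller glia-like (7.99 ± 2.24 CPM) and horizontal-like barcodes (5.50 ± 4.96 CPM) were the lowest, with RGC-like barcodes 5.39-fold and 6.44-fold higher. These log2 differences of 2.43 and 2.69 ran from 1.81 to 3.78 and from 1.93 to 2.96 in the alternatives.

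Chrnb2 was higher in RGC-like than in bipolar-like (2.14-fold), rod-like (2.03-fold), cone-like (2.71-fold), Müller glia-like (2.82-fold) and horizontal-like barcodes (2.32-fold), but its difference from amacrine-like barcodes (22.4 ± 6.39 CPM) was below the limit of 0.5, at 0.46 ± 0.147 SE on the log2 scale (adjusted p = 0.00842). It passed that limit in 6 of 18 alternatives, over which it ran from 0.38 to 0.59. Chrna3, which pairs with Chrnb4 in autonomic ganglia, was at 5.44 ± 2.35 CPM in rod-like barcodes and at 1.27 to 3.01 CPM in the other classes, lower than the RGC-like level in 8 of 8 libraries in each. Chrna3 and Chrna4 did not pass the filter in this fit. Chrna4, the usual partner of Chrnb2 in brain, had another order, with 12.1 ± 7.06 CPM in amacrine-like barcodes (66 UMIs) and 7.94 ± 4.56 CPM in horizontal-like ones against 4.84 CPM in RGC-like ones. Its amacrine-like values ran from 1.07 CPM in control replicate 2 to 20.7 CPM in cKO replicate 11, and amacrine-like and horizontal-like levels did not differ beyond their spread (exact paired permutation p = 0.102).

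Of the genes at the limit of detection, Chrna5 was highest in rod-like barcodes, at 2.94 ± 1.45 CPM (31 UMIs, of which 2 would come from free RNA). Near-empty droplets held it at 2.88 ± 0.835 CPM, close to its level in these shallow barcodes. Its RGC-like level was lower than the rod-like one in 8 of 8 libraries. The rod-like level was above the amacrine-like one (1.92 ± 1.99 CPM) in 5 of 8, no difference beyond the spread (exact paired permutation p = 0.25). Chrna2 and Chrna5 had no UMI in bipolar-like barcodes, which allows up to 0.691 CPM, and Chrnb4 none in amacrine-like barcodes, which allows up to 0.477 CPM (3 UMIs, counting error only). Chrnb4 was at 3.29 ± 4.22 CPM in cone-like barcodes on 7 UMIs.

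The share of RGC-like barcodes with a UMI was 74.8 ± 4.91% for Chrnb3, 53.4 ± 6.38% for Chrna6, 22.2% for Chrna7, 20.6% for Chrnb2, 7.41% for Chrna3 and 3.65% for Chrna4. In horizontal-like barcodes, of similar depth (median 6013 UMIs), Chrnb3 was found in 5.11% and Chrna6 in 4.23%. When each barcode was thinned to 2000 UMIs and gated anew (2321 control and 3577 cKO barcodes were shallower and left out), 11305 RGC-like barcodes had Chrnb3 in 37.6%, Chrna6 in 20.8%, Chrna7 in 7.02% and Chrnb2 in 6.05%. At this depth 42.4% had no UMI of any of the 9 genes, 42.3% had UMIs of 1 gene, 13.6% of 2 genes and 1.59% of 3 genes. Chrnb3 was found in 40.8% of barcodes with a Chrna6 UMI and in 36.7% of those without, with the same direction in 8 of 8 libraries. Chrna6 was found in 18.4% of barcodes with a Chrna7 UMI and in 21.0% of those without, higher with Chrna7 in 3 of 8 libraries.

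Several subunit genes differed between groups of RGC-like barcodes. Groups were set by a gate gene, with at least 2 UMIs of Foxp2, Tbr1, Eomes, Spp1, Cartpt, Zic1 or Chrm2, or at least 1 of Piezo2, and compared with the remaining RGC-like barcodes of the same library. Foxp2 marks F-type RGCs, Eomes the intrinsically photosensitive RGCs, Spp1 the large alpha RGCs and Cartpt many direction-selective RGCs, but a gate on 1 gene is not a cell type. The groups held 4151 (Cartpt), 3181 (Foxp2), 1278 (Piezo2), 1249 (Chrm2), 712 (Spp1), 225 (Zic1), 174 (Eomes) and 82 barcodes (Tbr1, too few to fit with the main gate). They overlapped, with 1534 barcodes (8.17%) in 2 or more groups and 9373 (49.9%) in none, so the comparisons are not independent. Spp1-positive barcodes were deeper than the others, with a median of 15797 against 7368 UMIs. In each fit 6 members were tested, all but Chrna2, Chrna5 and Chrnb4. With a lead of 1 gene between classes Tbr1-positive barcodes could be fitted in 4 libraries, and 1 of 6 members was called, Chrna7 (log2 difference -1.12 ± 0.334 SE, adjusted p = 0.0238 by edgeR), beside 3.60% of all genes.

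Chrna3 was concentrated in Cartpt-positive barcodes. It stood at 24.2, 27.6, 24.5 and 30.3 CPM in control and 17.3, 34.3, 29.0 and 21.7 CPM in cKO libraries (26.1 ± 5.31 CPM), against 6.86 ± 1.22 CPM in Cartpt-negative barcodes. Positive and negative groups did not overlap, and the difference was 3.74-fold (log2 1.90 ± 0.0818 SE, adjusted p = 1.96e-17). Of the 6 members tested, Chrna3 alone was called in this comparison, in which 5.19% of all genes were called, and the median log2 difference was 0.15 for the members and 0.01 for all genes. Cartpt-positive barcodes held 24.2% of the UMIs of RGC-like barcodes and 54.8% of their Chrna3 UMIs. The neighbours of Chrna3 on chromosome 9 showed similar shares on few counts, 28 of 47 UMIs for Chrnb4 (59.6%) and 21 of 41 for Chrna5 (51.2%). Chrnb4 was higher in Cartpt-positive barcodes in 8 of 8 libraries and Chrna5 in 7 of 8. With no filter on low counts both were called, Chrnb4 with a log2 difference of 2.14 and Chrna5 with 1.57, in a fit that called 3.48% of 28942 genes. Since the strand used in counting is not given here, Chrna3 and Chrna5 reads within their overlap of 790 bases may not be told apart.

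Chrna3 was low in other groups. In Spp1-positive barcodes it was at 1.53, 2.47, 1.49 and 0 CPM in control and 0, 2.00, 1.81 and 1.90 CPM in cKO libraries, 19 UMIs in all, 8.04-fold lower than in Spp1-negative barcodes (log2 difference -3.01 ± 0.237 SE, adjusted p = 9.07e-13, from -3.80 to -2.27 in the alternatives). Near-empty droplets would give 3.03 of these UMIs. In Foxp2-positive barcodes it was at 3.21 ± 0.781 CPM against 13.0 ± 2.51 CPM (4.00-fold lower, log2 difference -2.0 ± 0.134 SE, adjusted p = 1.12e-14). Neither pair of groups overlapped. Eomes-positive barcodes held 8 Chrna3 UMIs in 7 libraries, 4.11 ± 3.80 CPM, with a log2 difference of -1.59 ± 0.474 SE (adjusted p = 0.0111). This call was lost with a lead of 3 genes (-1.30, adjusted p = 0.191 by edgeR) and with DESeq2 (-1.57, adjusted p = 0.0734).

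**Figure D3:**
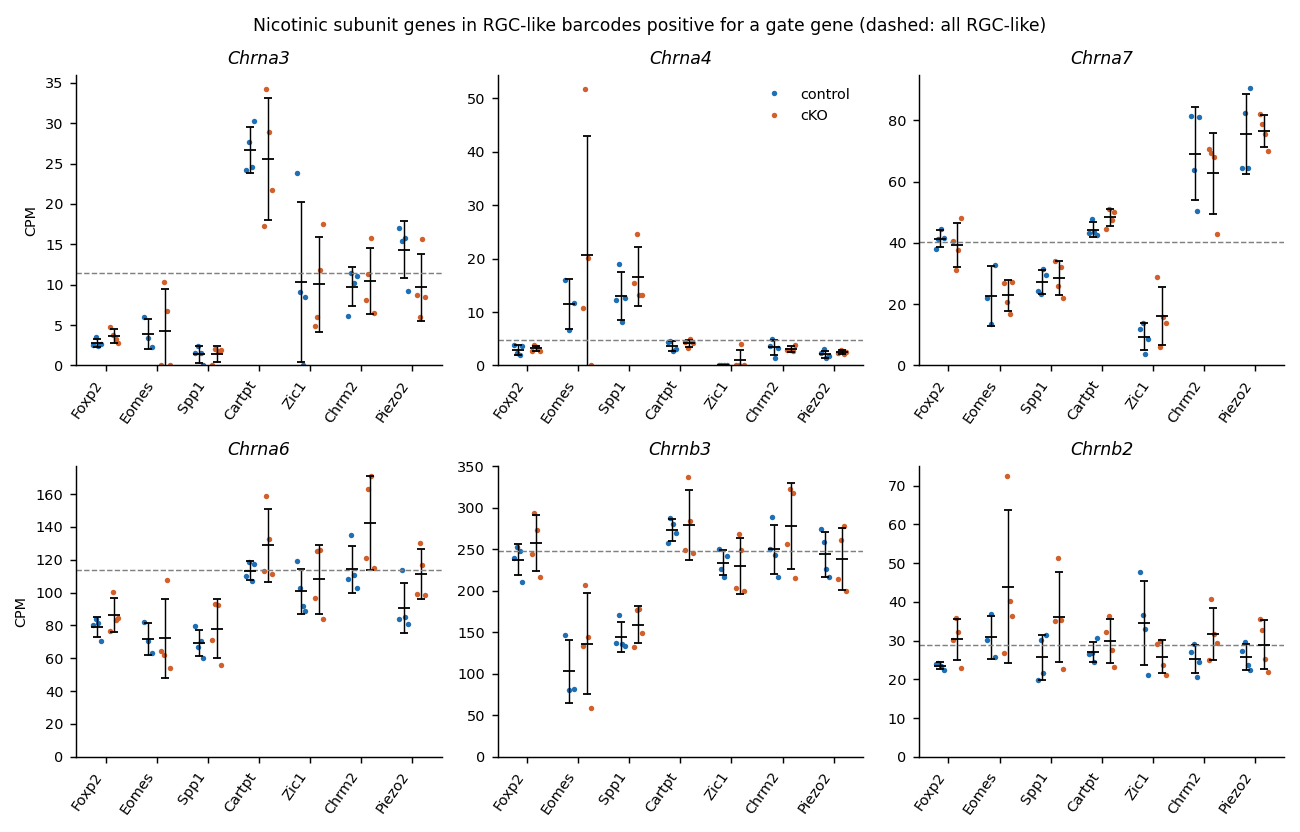
CPM (y axis, linear, a separate scale for each panel) of 6 subunit genes in RGC-like barcodes positive for each of 7 gate genes (x axis). Points are libraries, blue for control and orange for cKO, black marks are the mean ± SD of a group, and the dashed line is the mean of all RGC-like barcodes. Chrna3 is highest in Cartpt-positive barcodes, Chrna4 in Spp1-positive and Eomes-positive ones, and Chrna7 in Piezo2-positive and Chrm2-positive ones.

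Chrna4 was highest in Spp1-positive and Eomes-positive barcodes, both low in Chrna3. In Spp1-positive barcodes it stood at 12.2, 18.9, 8.22 and 12.7 CPM in control and 15.5, 24.7, 13.1 and 13.3 CPM in cKO libraries (14.8 ± 4.99 CPM), against 4.00 ± 0.935 CPM in Spp1-negative barcodes. All 8 values were above all values of the negative barcodes, a 3.74-fold difference (log2 1.90 ± 0.157 SE, adjusted p = 2.70e-12). Spp1-positive barcodes held 7.57% of the UMIs of RGC-like barcodes and 24% of their Chrna4 UMIs. In Eomes-positive barcodes, with control replicate 1 left out for too few barcodes, Chrna4 was at 16.0, 6.69 and 11.7 CPM in control replicates 2 to 4 and at 10.7, 51.8, 20.1 and 0 CPM in cKO replicates (29 UMIs). The spread was wide, on few counts, and the log2 difference was 1.56 ± 0.386 SE (adjusted p = 0.00109).

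In these groups 5 of the 6 members were called, Chrna4 higher and Chrna3, Chrna6, Chrna7 and Chrnb3 lower in both. The groups shared 32 barcodes, 18.4% of Eomes-positive and 4.49% of Spp1-positive ones, so their calls are not independent. The background was 22.7% of all genes for Spp1 and 8.82% for Eomes, and the median log2 difference of the 6 members was -0.62 and -0.77, against 0.00 and -0.07 over all genes. Chrnb3 was at 152 ± 20.3 CPM in Spp1-positive barcodes (1.65-fold lower) and at 122 ± 51.3 CPM in Eomes-positive ones (2.23-fold lower), and in neither case did positive and negative groups overlap. Chrna6 was 1.60-fold lower with Spp1 and 1.58-fold lower with Eomes, and Chrna7 1.48-fold and 1.83-fold. The Chrna6 call with Eomes was lost with a lead of 3 genes (-0.48) and with a gate that allowed for free RNA (-0.43).

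Chrna4 was also low in some groups. In Piezo2-positive barcodes it was at 2.31 ± 0.540 CPM against 5.07 ± 1.37 CPM, with no overlap (log2 difference -1.08 ± 0.226 SE, adjusted p = 0.000596, from -1.96 to -0.76 in the alternatives). In Foxp2-positive barcodes the log2 difference was -0.77 ± 0.168 SE. Zic1-positive barcodes held 1 Chrna4 UMI in all, in cKO replicate 12, a ratio to Zic1-negative barcodes of 0.105 (95% exact interval 0.00266 to 0.588, counting error only). The edgeR call for this gene (adjusted p = 0.0146) did not hold with DESeq2 or without control replicate 2.

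Chrna7 was highest in Piezo2-positive barcodes. Piezo2 encodes a mechanically activated channel and is the gene floxed here. Chrna7 stood at 64.6, 82.3, 64.6 and 90.6 CPM in control and at 82.2, 78.8, 75.6 and 69.9 CPM in cKO libraries (76.1 ± 9.24 CPM), against 37.0 ± 1.53 CPM in Piezo2-negative barcodes. The groups did not overlap, and the difference was 2.13-fold (log2 1.09 ± 0.0589 SE, adjusted p = 2.92e-16). With Chrna4, it was 1 of 2 members called, beside 5.48% of all genes. It was called too with barcodes thinned to 2000 UMIs and in all 20 alternatives fitted. Median depth was 9341 UMIs in Piezo2-positive and 7398 UMIs in Piezo2-negative barcodes.

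Chrm2-positive barcodes, which shared 353 barcodes with the Piezo2-positive group (28.3% of Chrm2-positive and 27.6% of Piezo2-positive barcodes), had Chrna7 at 81.4, 63.8, 50.3 and 81.1 CPM in control and 70.5, 69.2, 68.0 and 43.0 CPM in cKO libraries. The log2 difference was 0.80 ± 0.0800 SE, with 6.16% of all genes called, but it was 0.01 and not called with thinned barcodes. Thinned barcodes were gated anew on at least 2 Chrm2 UMIs, so this is another group and not the same barcodes at equal depth. That holds for every group comparison with thinned barcodes. Chrna7 was low in Zic1-positive barcodes, at 12.8 ± 7.77 CPM (25 UMIs, log2 difference -1.66 ± 0.257 SE, adjusted p = 3.15e-09, from -2.31 to -1.40 in the alternatives). The background was 8.88% for Zic1, with 2 members called, and 11.5% for Foxp2, with 3.

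Chrna6 and Chrnb3 varied less. Chrna6 was lower in Foxp2-positive barcodes, with 80.3, 84.0, 81.2 and 70.5 CPM in control and 76.6, 101, 83.0 and 84.8 CPM in cKO libraries against 119 ± 18.6 CPM in negative barcodes. The groups did not overlap, but the log2 difference of -0.51 ± 0.0406 SE was just past the limit and fell to between -0.46 and -0.50 without control replicate 4, cKO replicate 11 or cKO replicate 12. The call was also lost with a lead of 3 genes (-0.48) and with the gate that allowed for free RNA (-0.49), and with thinned barcodes the difference was -0.78. Chrnb3 was at 247 ± 27.3 CPM in the same Foxp2-positive barcodes, with a log2 difference of 0.02 ± 0.0274 SE, so that the ratio of the chromosome 8 neighbours differed between these groups. Chrnb2 was called in none of the 7 groups fitted, with means of 26.9 to 38.3 CPM. With barcodes thinned to 2000 UMIs and gated anew on Chrm2, it was called in the Chrm2 comparison, with a log2 difference of 1.07 (adjusted p = 0.0167 by edgeR) in place of 0.02.

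**Figure D4:**
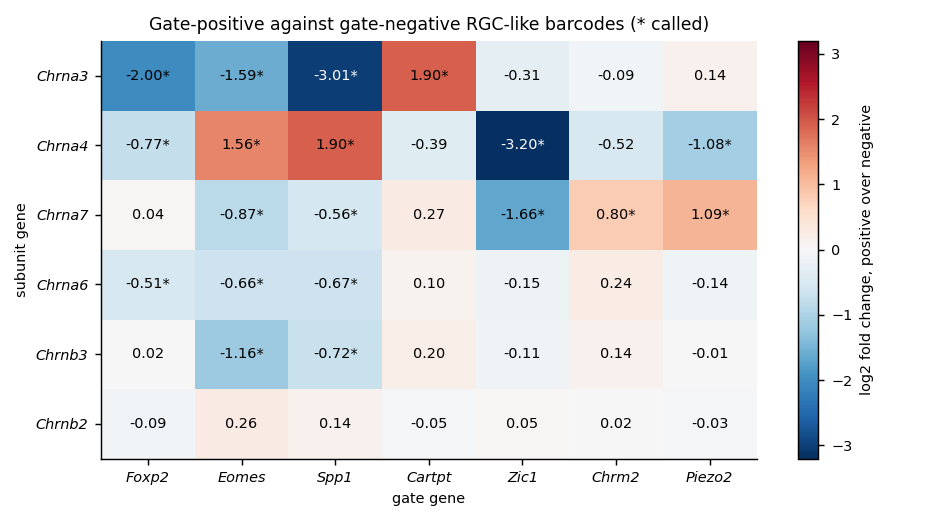
Log2 fold change (colour and printed value, red higher and blue lower in positive barcodes) of 6 subunit genes (rows) between RGC-like barcodes positive and negative for 7 gate genes (columns); an asterisk marks a call. Chrna3 and Chrna4 have opposite signs in the Spp1 and Eomes columns, and the Chrnb2 row has no call.

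Genes that act with these receptors were taken from fixed lists. Of 10 chaperones and Ly6 modulators, small surface proteins that bind nicotinic receptors, 7 were tested against amacrine-like barcodes and 5 were higher in RGC-like barcodes, beside 13.8% of all genes higher, with a median log2 difference of 0.63 for the 7 genes. They were Lypd6 (log2 difference 4.62 ± 0.248 SE), Lypd6b (4.17 ± 0.249 SE), Lynx1 (1.13), Tmem35a, a chaperone of Chrna7 receptors (0.63), and Ly6h (0.51). Lypd6b was higher in RGC-like barcodes against all 6 other classes, and Lypd6 against 5, but Lypd6 was lower than in Müller glia-like barcodes (-1.47). Among RGC-like groups, Lypd6 was lower in Foxp2-positive (-2.05), Eomes-positive (-1.67) and Spp1-positive barcodes (-0.91), and Lypd6b in Foxp2-positive (-1.99) and Eomes-positive ones (-1.15). Ly6h was lower in Spp1-positive (-2.60) and Chrm2-positive (-0.75) and higher in Eomes-positive barcodes (0.55). Lypd1, another gene of this family, was lower in 5 groups, from -0.60 with Foxp2 and -0.88 with Cartpt to -2.15 with Chrm2, -2.59 with Spp1 and -3.54 with Eomes. Ly6e was lower with Spp1 (-0.61) and Piezo2 (-0.65), and Lynx1 with Eomes (-0.53). Of 8 tested in these groups, 3 were called with Foxp2 (11.5% of all genes), 4 with Spp1 (22.7%) and 2 with Chrm2 (6.16%). With Eomes 4 were lower and 1 higher (8.82%). Cartpt (5.19%) and Piezo2 (5.48%) had 1 each, and Zic1 (8.88%) had 0.

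Of 5 muscarinic receptors, the metabotropic acetylcholine receptors, 3 were tested in RGC-like groups. In Piezo2-positive barcodes, with 5.48% of all genes called, Chrm1 (2.37) and Chrm2 (2.68) were higher and Chrm3 (-0.84) was lower. In Cartpt-positive barcodes, with 5.19% called, the signs were reversed, with Chrm3 higher (0.91) and Chrm1 (-0.90) and Chrm2 (-1.10) lower. The same signs were found in Foxp2-positive barcodes, with 11.5% called, for Chrm3 (0.71), Chrm1 (-3.65) and Chrm2 (-2.30). In Spp1-positive barcodes, with 22.7% called, Chrm1 was higher (1.85) and Chrm2 (-2.96) and Chrm3 (-0.94) were lower. In Eomes-positive ones, with 8.82% called, Chrm2 (-1.13) and Chrm3 (-1.31) were lower. All 3 were lower in Zic1-positive ones, with 8.88% called (Chrm1 -8.01 ± 2.46 SE, Chrm2 -1.41 ± 0.216 SE, Chrm3 -2.64 ± 0.135 SE). The Chrm1 value, in a group of 225 barcodes, has too wide an SE to give the size of the difference. Chrm1 was higher (2.45) in Chrm2-positive ones, with 6.16% called. Against other classes Chrm2 and Chrm3 were tested, both called higher in RGC-like than in rod-like, cone-like, Müller glia-like and horizontal-like barcodes. Of 7 genes of acetylcholine synthesis, transport and breakdown, 3 were tested against other classes. Bche, a cholinesterase, was lower in RGC-like than in bipolar-like (-6.08), Müller glia-like (-4.66) and rod-like barcodes (-2.38). Prima1, which anchors acetylcholinesterase, was lower than in amacrine-like (-2.58), bipolar-like (-1.92) and rod-like barcodes (-0.69) and higher than in cone-like (2.03) and horizontal-like ones (2.32). Ache, acetylcholinesterase itself, was higher than in rod-like (0.50) and Müller glia-like barcodes (1.42). The shares of all genes called in these comparisons, 25.4% to 50.8%, are those given above. Of the subunits of the muscle and inner ear receptors, Chrnb1 alone was tested against other classes, and it was lower in RGC-like than in bipolar-like (-2.53), rod-like (-1.18), Müller glia-like (-1.12) and amacrine-like barcodes (-0.89).

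In the comparison of cKO with control, the targeted gene was examined first. Piezo2 was at 17.5, 14.3, 15.6 and 10.6 CPM in RGC-like barcodes of control and at 15.6, 13.8, 11.3 and 8.46 CPM in those of cKO libraries. The groups overlapped, and the difference of -2.20 CPM had a two-sided exact permutation p of 0.371 over 70 assignments. It ran from -0.93 CPM without cKO replicate 13 to -3.48 CPM without control replicate 4, and was -0.61 CPM with thinned barcodes. Counts over the whole gene do not show whether the floxed part was removed. RGC-like barcodes held 1 Olig2 UMI in all and the 6 other classes none.

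No subunit gene was called between genotypes in any class. In RGC-like barcodes 0 of 6 members tested were called by edgeR, beside 0% of 17850 genes, and 664 of these genes had an unadjusted p under 0.05. DESeq2 called 3 genes, none of them a member. Chrna4 had the largest difference, with 4.33, 4.95, 3.37 and 3.48 CPM in control and 4.52, 7.40, 5.73 and 4.92 CPM in cKO libraries. The groups overlapped, and its log2 difference was 0.42 ± 0.182 SE (unadjusted p = 0.0420, adjusted p = 0.985). The other 5 lay between -0.01 ± 0.0691 SE (Chrna7) and 0.22 ± 0.106 SE (Chrnb2), with 0.14 ± 0.105 for Chrna6, 0.11 ± 0.163 for Chrna3 and 0.01 ± 0.0887 for Chrnb3. Leaving out 1 library moved several of these values by over 1.5 times, Chrna3 to between 0.0071 (without cKO replicate 12) and 0.24 (without cKO replicate 10), Chrna6 to between 0.059 (without cKO replicate 11) and 0.21 (without cKO replicate 10), and Chrnb2 to as low as 0.11 (without cKO replicate 11). The median of the members was 0.12 and that of all genes 0.01.

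In the other classes edgeR called 0 members of 3 tested in amacrine-like, 3 in bipolar-like, 4 in rod-like, 2 in cone-like and 3 in Müller glia-like barcodes, with 0% of all genes called in each and 476, 236, 395, 304 and 406 genes at an unadjusted p under 0.05. None of these members had an unadjusted p under 0.05. In horizontal-like barcodes, where 0.0138% of genes were called, no member passed the filter. Chrnb2 in Müller glia-like barcodes had the value farthest from 0 among these, 0.71 ± 0.385 SE, on 75 UMIs. The interaction of genotype with the difference between RGC-like and amacrine-like barcodes was called for 0 of 6 members, beside 0.0245% of all genes, with none of the 6 at an unadjusted p under 0.05. A missed threshold does not show that levels were equal, and the SEs, derived from the F statistic, give the precision only approximately.

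**Figure D5:**
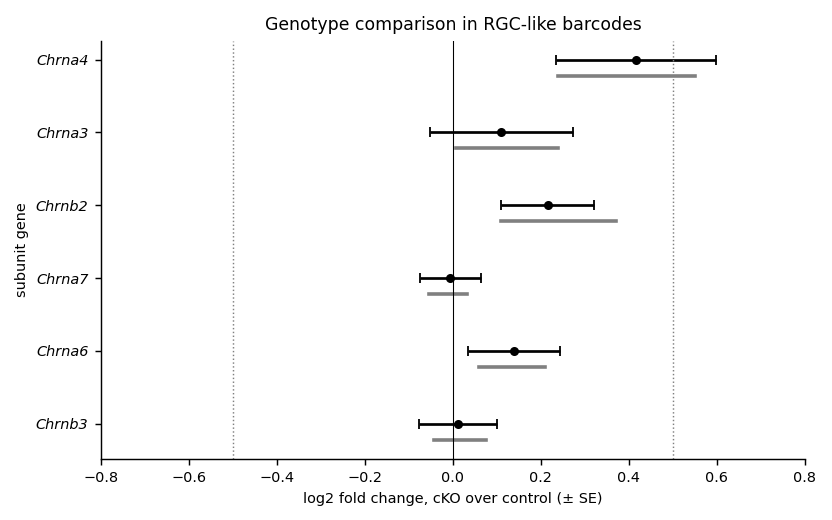
Log2 fold change of cKO over control in RGC-like barcodes (x axis) for 6 subunit genes (y axis). Black points and bars are the edgeR estimate ± SE, grey bars the range over the alternatives fitted, and dotted lines the limit of 0.5 in either direction. Estimates run from -0.01 for Chrna7 to 0.42 for Chrna4, and none was called.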

How the data were processed

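The deposited values are raw UMI counts of genes in barcodes, near-empty ones included, which the authors made with Cell Ranger 7.0.0 on the GRCm39 mouse reference per the labels and the study's methods. Free RNA had not been removed. All 9 genes and all other lists and gates were chosen with earlier results of these data known. Named genes are the 9 members and, from the other lists, genes called in a comparison described. One further group of RGC-like barcodes is not reported here.

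Barcodes with at least 1000 UMIs were gated on marker genes. No doublet caller was run, and one alternative left out the 5% of gated barcodes with the highest UMI totals. Counts were summed per library and group and compared by the quasi-likelihood F test of edgeR (version 4.0.16, R version 4.3.3) after filterByExpr and TMM, with Benjamini-Hochberg adjustment over all genes tested, with genotype as the only term or, within libraries, the library as a block. The SE of an edgeR difference was taken as its absolute log2 value divided by the square root of the F statistic. A library needed more than 10 barcodes and more than 1000 UMIs of a group. DESeq2 1.42.0, RLE size factors, other leads, thinning to 2000 UMIs, quality filters (at least 200 genes, at most 5% mitochondrial), no filter on low counts and leaving out each library were alternatives. Single values were compared by exact permutation over libraries. Libraries pool retinae, so p-values measure the spread between pools, and intervals and limits cover counting error only.

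Gene positions come from GENCODE on GRCm39 and promoters from RefSeq on GRCm38.p6.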

Additional observations from a re-analysis of the deposited data

Results flagged for a closer look

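Of 126 sets of 4 libraries, 6 held a library far from the other 3 (gap over range above 0.829), and chance alone gives about 1 in 20. Control replicate 2 was high for Chrna6 in RGC-like barcodes (113 CPM, others 103 to 103) and in Piezo2-positive barcodes (114 CPM, others 80.8 to 85.3), and for Chrnb3 in Spp1-positive barcodes (171 CPM, others 133 to 137). In rod-like barcodes cKO replicate 11 was high for Chrna6 (80.1 CPM, others 44.9 to 50.8) and Chrnb3 (165 CPM, others 76.5 to 88.7). In Chrm2-positive barcodes cKO replicate 13 was low for Chrna7 (43.0 CPM, others 68.0 to 70.5).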

How the results depend on the processing

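Over all comparisons 39 calls of members were made. They came from class comparisons with 4 members tested in each and RGC-like group comparisons with 6 in each. The class comparisons, which share the RGC-like barcodes, called 25.4% to 50.8% of all genes, and the group comparisons 5.19% to 22.7%. In the alternatives fitted, 33 of the 39 calls held in every one, 6 were lost in at least 1 and 0 changed direction. Of 735 values for these members 718 kept the call. The same count over all genes was not made. The number of members called was 4 against amacrine-like barcodes with a lead of 1 gene, and with no filter on low counts 6 against amacrine-like, 6 against rod-like and 5 against cone-like barcodes and 3 in the Cartpt comparison. These fits called 26.1%, 17.5%, 30.5%, 28.9% and 3.48% of all genes they tested. It was 2 for Cartpt with a threshold 1 UMI higher (8.30% of all genes called), 3 for Eomes with a lead of 3 genes (6.77%), and 1 with thinned barcodes for Foxp2 (7.70%) and Piezo2 (2.37%). Chrna3 and Chrna4 with Foxp2 and Chrna4 with Piezo2 were not tested with thinned barcodes, so these calls were not checked at equal depth. For Zic1 it was 1 with a lead of 3, with a threshold 1 UMI higher, with DESeq2 and with a gate that allowed for free RNA, which was chosen after seeing the data (5.21% to 8.45% of all genes called). Leaving out each library gave 1 to 2 members for Zic1 (1 without control replicate 2), and 2 to 3 against amacrine-like barcodes (3, with Chrnb2, without control replicate 1, control replicate 2 or cKO replicate 12). In the genotype comparison of RGC-like barcodes, Chrna7 (-0.01) turned to 0.022 without the top 5% of UMI totals and ran from -0.045 to 0.032 over left-out libraries, and Chrnb3 (0.01) from -0.044 to 0.074. In all 125 alternatives of the genotype and interaction comparisons in which a member was tested, no member was called. No paired analysis was possible because the replicate numbers of control and cKO libraries do not overlap. Comparisons within libraries had the library as a block, and without the replicate block each count of members called was the same as with it. Fits for starburst amacrine-like barcodes, thinned Eomes, Spp1 and Zic1 groups and the higher Eomes threshold were not run for too few barcodes, and in thinned cone-like and amacrine-like genotype fits no member passed the filter. Tbr1 could be fitted with a lead of 1 gene alone. Depth limits Chrna2, Chrna5 and Chrnb4, and few barcodes limit the Eomes, Zic1 and amacrine-like groups.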

Other observations

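A wider gate for starburst amacrine cells, the retinal neurons that release acetylcholine, was added after seeing the data (at least 3 of 6 starburst genes, at least 1 of them Chat, Slc5a7 or Slc18a3, and fewer than 3 RGC markers). It held 99 barcodes and 646077 UMIs over 8 libraries, 7 to 20 barcodes in each, and no test was run on it. Chat, the enzyme of acetylcholine synthesis, is 1 of the gate genes and was at 427 CPM there against 3.06 CPM in near-empty droplets. Chrna6 was at 15.5 CPM (10 UMIs, 95% Poisson interval 7.42 to 28.5), Chrnb3 at 13.9 CPM (9 UMIs, 6.37 to 26.4), Chrnb2 and Chrna7 at 7.74 CPM (5 UMIs each) and Chrna4 at 4.64 CPM (3 UMIs). Free RNA as in near-empty droplets would give 4.50 of the 10 Chrna6 UMIs, 4.71 of the 9 Chrnb3 UMIs, 1.10 of those of Chrnb2, 0.132 of those of Chrna7 and 0.351 of those of Chrna4. Chrnb4 had no UMI. The intervals cover counting error only.

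Over the means of 16 groups (8 classes and 8 gated RGC-like groups, which share libraries and barcodes), the log2 level of Chrna6 was most like that of Fras1 (Pearson r = 0.977), Ebf1 (0.973) and Tmem163 (0.965), and that of Chrnb3 like Ahnak2 (0.978), Gsr (0.970) and Gm12158 (0.969). Chrnb2 was most like Fam219a (0.978), D830024N08Rik (0.970) and Scn2b (0.969). The correlations were lower for Chrna7, with Lyrm1 (0.895), Scg5 (0.823) and A530058N18Rik (0.814), for Chrna4, with Cdh12 (0.851), Sdad1 (0.806) and Gss (0.805), and for Chrna3, with Rgs10 (0.801), Runx1 (0.792) and Gramd1c (0.776). Runx1 was at 24.9 CPM in Cartpt-positive barcodes and 12.2 CPM in RGC-like ones. Among the members, Chrna6 and Chrnb3 had r = 0.822 and Chrna3 and Chrna4 r = -0.45. One of the 16 groups is the gate of 18 starburst amacrine-like barcodes, in which Chrna6 had no UMI. Without it, in an alternative chosen after seeing the data, r was 0.991 for Chrna6 and Chrnb3 and -0.47 for Chrna3 and Chrna4, and over 15 groups Chrna6 had r = 0.971 with Fras1, 0.976 with Ebf1 and 0.926 with Tmem163, and Chrna3 0.874 with Runx1. These are descriptions, without a test.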
